A study of Mus musculus with 8 samples.

Results

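The 9 genes *Syk*, *Lck*, *Lyn*, *Blnk*, *Plcg1*, *Plcg2*, *Prkcq*, *Bcl10* and *Malt1* encode the chain that carries signals from immune receptors with tyrosine motifs to NF-κB, and they were picked by name from the 55487 genes of the count table. They were measured by bulk RNA-seq in LT-HSCs, the long-term repopulating hematopoietic stem cells, of E14.5 fetal liver from mouse embryos of the targeted *Nfkbia* (IκBα) line. There were 3 WT, 3 HET (heterozygous for the deletion) and 2 KO samples, each of 500 cells that had been sorted as lineage-negative, SCA1+, cKIT+, CD150+ and CD48-, and no group was treated. The labels give WT1, WT2 and HET1 as male with total RNA as the molecule, and WT3, HET2, HET3, KO1 and KO2 as female with polyA RNA, so sex and molecule label cannot be told apart and both KO samples carry the female label. The methods give a single library protocol for all samples, so the molecule label need not mean a difference in preparation. By the methods, RNA came from 3 mice of each genotype, and 1 KO sample was discarded for its sequencing quality. The allele is a germline deletion and so is not limited to blood cells.

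In this pathway a SRC-family kinase such as LYN or LCK phosphorylates the tyrosine motifs of a receptor chain, SYK docks there, and adaptors such as BLNK bring phospholipase Cγ to the complex. Phospholipase Cγ makes diacylglycerol and releases calcium, diacylglycerol activates protein kinases C such as PKCθ (*Prkcq*), and a CARD protein then assembles with BCL10 and MALT1 to switch on the IκB kinase. IκBα, the product of *Nfkbia*, holds NF-κB dimers inactive downstream of that kinase and is itself induced by NF-κB. The pathway is best known from B and T cells, mast cells and platelets.

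RefSeq promoters on GRCm38 were searched for 7 of the 9 genes. *Lyn* and *Malt1* were not among the genes searched, so their promoters are not described here. The 250 bases before the start are shown for the 3 genes in which one of the searched motifs was present. The sequence can thus be read beside the expression values. The motifs were the κB consensus, the PU.1 element GAGGAAGT, the GATA element AGATAA and the RUNX element TGTGGT, each on both strands, and no match of one overlapped another. Capitals mark the match, which is a match of letters and not a bound site.
Plcg2, chr8:117498025-117498274, plus strand, GATA match: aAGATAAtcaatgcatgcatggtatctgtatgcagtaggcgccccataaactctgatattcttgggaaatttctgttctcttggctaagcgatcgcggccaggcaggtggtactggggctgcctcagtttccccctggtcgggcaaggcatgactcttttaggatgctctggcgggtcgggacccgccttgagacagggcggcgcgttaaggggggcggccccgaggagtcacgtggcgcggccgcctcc
Bcl10, chr3:145924012-145924261, plus strand, κB match: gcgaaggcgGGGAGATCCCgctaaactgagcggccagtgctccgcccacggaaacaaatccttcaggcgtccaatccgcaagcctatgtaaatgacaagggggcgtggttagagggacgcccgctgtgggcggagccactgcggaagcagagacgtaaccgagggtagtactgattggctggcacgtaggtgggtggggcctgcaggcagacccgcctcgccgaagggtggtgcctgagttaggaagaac
Lck, chr4:129573642-129573891, minus strand, RUNX match, upstream start: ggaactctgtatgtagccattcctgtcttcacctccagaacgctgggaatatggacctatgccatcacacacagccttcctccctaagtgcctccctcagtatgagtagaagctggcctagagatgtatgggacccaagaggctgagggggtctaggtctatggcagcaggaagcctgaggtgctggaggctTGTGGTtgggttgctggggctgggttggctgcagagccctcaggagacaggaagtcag
Of the 9 windows of the 7 genes searched (*Lck* and *Syk* have 2 starts each), 1 held the κB consensus, which was present in 7.3% of 32851 promoters of the same length. The GATA element was in 1 of 9 against 10% of all promoters, the RUNX element in 1 of 9 against 14.0%, and the PU.1 element in 0 of 9 against 2.4%. The *Bcl10* match lay 231 bases and the *Plcg2* match 243 bases before the start, and that of *Lck* 52 bases. The *Bcl10* window lies within a retained-intron transcript of *Bcl10* in GENCODE, and the other 2 windows overlap no exon of their gene. *Bcl10*, whose window held the κB match, was among the genes with the narrowest range of levels, and *Plcg2* had the widest of the 8 genes with reads in every library, as described next.

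The deletion was seen in the reads of *Nfkbia*, with 1 read in KO1 and 0 in KO2 against 243 to 1621 in the WT and HET samples. Counts scaled to library size (CPM, with TMM scaling) of *Nfkbia* were 45.5 ± 22.2 in WT (SD, n = 3) and 22.2 ± 7.34 in HET (SD, n = 3). Each library held 17895973 to 21720972 reads on genes, so that 3 reads, the smallest count read as signal here, correspond to 0.125 to 0.178 CPM by counting error alone. The libraries differed in their RNA of stem cell markers. The 12 LT-HSC markers summed to 2475, 2596 and 946 CPM in WT1, WT2 and HET1, to 357, 739 and 246 CPM in WT3, HET2 and HET3, and to 2455 and 1621 CPM in KO1 and KO2. All 12 had a read somewhere, and all 12 were higher in both KO samples than in the 3 female WT/HET samples, against 27.1% of all genes tested. By DESeq2 with apeglm shrinkage, the tool of the study's methods, 6 of the 12 were called as higher in KO, against 6.5% of all genes. HET3 and WT3 stood apart, with *Ly6a* (SCA1, a sort marker) at 0 and 5 CPM and *Mecom* at 1.36 and 10.1 CPM, whereas *Kit* stayed between 135 and 231 CPM in all 8. Their 6 hepatocyte markers summed to 571 and 1158 CPM, against 6.26 to 214 CPM in the 6 other libraries. The 8 erythroid markers summed to 613 and 2503 CPM in KO1 and KO2, below the 2904 to 3863 CPM of the female WT/HET samples, and to 646 to 9025 CPM in the male ones. The 6 endothelial markers had 140 and 80.3 CPM in KO1 and KO2, 4.51 to 42.6 CPM in the female and 61.2 to 156 CPM in the male WT/HET samples. The 7 megakaryocyte and platelet markers had 1031 CPM in KO1 and 108 CPM in KO2, 23.8 to 436 CPM in the female and 152 to 1276 CPM in the male WT/HET samples. In bulk samples, fewer cells of a type and less RNA per cell cannot be told apart, and the part of these differences in the results below was not tested except where a value is given.

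**Figure D1:**
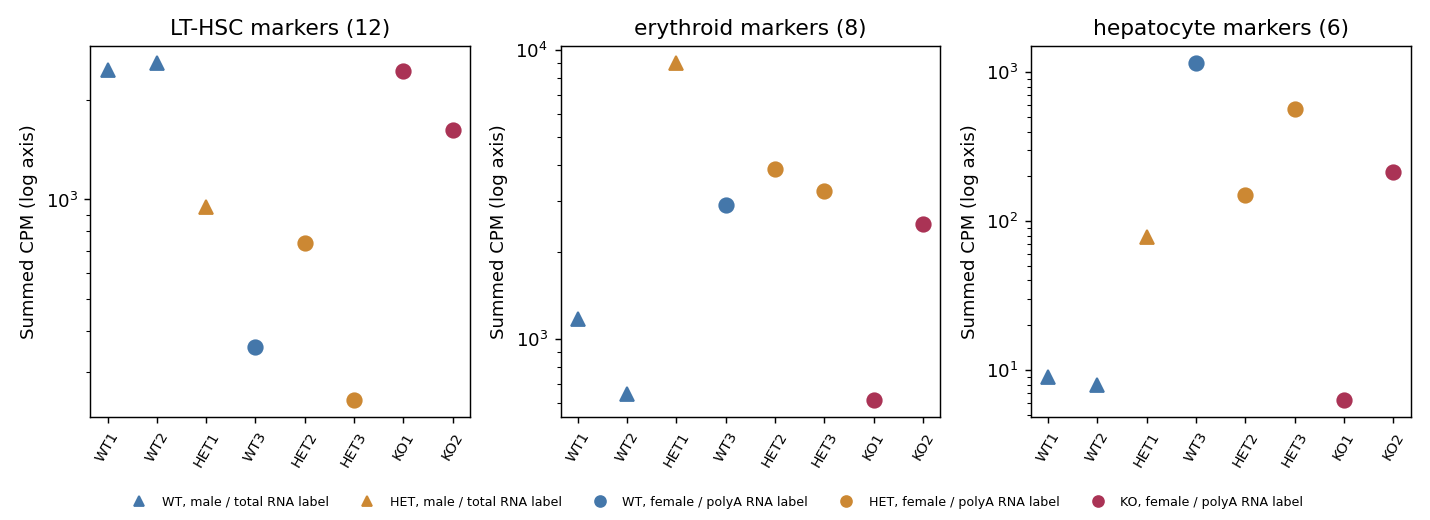
Summed CPM (log axis) of 3 marker lists in each library, with triangles for the male and circles for the female label and colors for the genotype. WT1, WT2, KO1 and KO2 are the 4 libraries with the highest LT-HSC sums (1621 to 2596 CPM), and WT3 and HET3 have the lowest (357 and 246 CPM) and the highest hepatocyte sums.

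All 9 genes passed the filter on low counts (10 reads over the 8 samples), *Blnk* through small counts. Compared per length, as CPM for each kilobase of annotated exon (RPKM), *Plcg2* was the highest by median at 24.3, followed by *Lyn* at 19.6 and *Bcl10* at 19.1. These 3 could not be ranked, since *Plcg2* ran from 2.65 RPKM in HET3 to 52.8 in KO1 and so spanned the other 2. *Prkcq* followed at 6.99, *Lck* at 4.26, *Plcg1* at 3.03 and *Syk* at 2.42, and the ranges of these 4 overlapped as well. *Malt1* was lower at 0.659 RPKM with a highest value of 1.06, below the lowest value of *Syk*, and *Blnk* was last at 0.105. Within single libraries, *Plcg2* exceeded *Plcg1* in every one, by 4.62 to 11.7 times per length, and *Lyn* exceeded *Lck* in every one, by 3.20 to 17.8 times. *Bcl10* exceeded *Malt1* by 19.2 to 32.8 times per length, although *Malt1* has the longest annotated exons of the 9, 18040 bases, of which not all need be in the transcript.

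**Figure D2:**
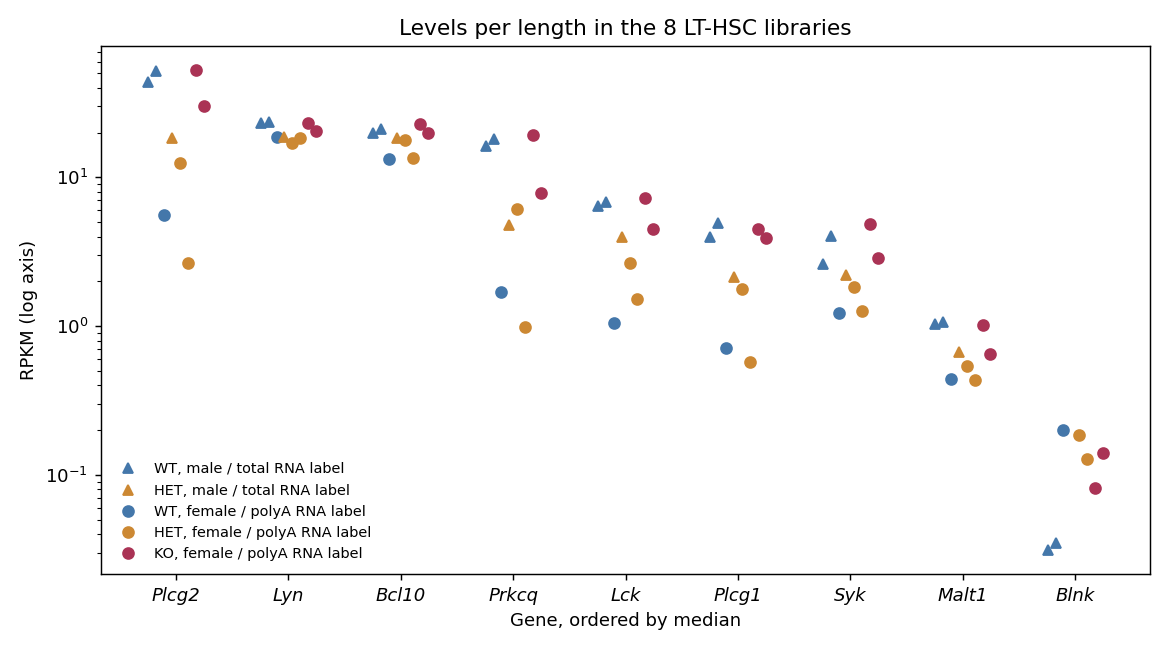
RPKM (log axis) of the 9 genes, ordered by their median, with 1 point for each library. HET1 had 0 reads of *Blnk* and is not drawn there. *Lyn* and *Bcl10* form tight groups (16.9 to 23.5 and 13.3 to 23.0), whereas *Plcg2* spreads over 2.65 to 52.8.

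The SRC-family kinases came first in the chain. *Lyn*, which starts signalling from many receptors and also feeds their inhibition, was level across the libraries. It had 94.2, 95.9 and 76.2 CPM in the male WT1, WT2 and HET1, 76.1, 69.0 and 74.7 CPM in the female WT3, HET2 and HET3, and 94.5 and 83.4 CPM in KO1 and KO2. Its highest library exceeded its lowest by 1.39 times. *Lck*, best known as the kinase of the T-cell receptor, had 18.8, 20.0 and 11.7 CPM in the male, 3.07, 7.82 and 4.45 CPM in the female WT/HET and 21.2 and 13.3 CPM in the KO samples. KO1 was the highest library for *Lck*, and KO2 lay between HET1 and WT1, with all 3 female WT/HET samples below. *Mir8119* overlaps *Lck* on the same strand and *Gm26857* overlaps *Lyn* on the opposite strand. The strand used for counting is not stated, and how reads in the shared stretches were assigned was not checked.

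*Syk*, the kinase that docks on the phosphorylated motifs, had 24.6, 37.7 and 20.7 CPM in the male WT/HET samples, 11.4, 17.1 and 11.9 CPM in the female ones and 45.5 and 27.0 CPM in KO1 and KO2. KO1 was the highest library of all, and KO2 lay below WT2. Its relative *Zap70*, the kinase that takes its place in T cells, had 2 reads in all 8 libraries together. *Blnk*, the adaptor that links SYK to phospholipase Cγ in B cells, was near the limit of detection, with 4, 5 and 0 reads in the male WT/HET samples, 23, 22 and 13 in the female ones and 10 and 17 in KO. Over the 3 libraries of each label it had 9 against 58 reads, the opposite direction to the other 8 genes. Its counterpart *Lcp2* (SLP-76) was above *Blnk* per length by 8.79 to 1155 times in the 7 libraries with a *Blnk* read.

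The phospholipases and PKCθ varied most among the 8 genes with reads in every library. *Plcg2*, the main phospholipase Cγ of blood cells, had 189, 222 and 79.1 CPM in WT1, WT2 and HET1, 24.2, 53.6 and 11.4 CPM in WT3, HET2 and HET3, and 227 and 130 CPM in KO1 and KO2. The difference between its highest and lowest libraries was 19.9 times. *Plcg1*, the widely expressed form, had 31.5, 38.7 and 16.9 CPM in the male, 5.63, 13.9 and 4.51 CPM in the female WT/HET and 35.4 and 30.8 CPM in the KO samples. For either gene both KO samples exceeded HET1 and the female WT/HET samples, and KO2 lay below WT1 and WT2. *Prkcq* (PKCθ), which links diacylglycerol to the CARD complex, had 115, 129 and 34.0 CPM in the male, 12.1, 43.5 and 6.94 CPM in the female WT/HET and 136 and 55.5 CPM in the KO samples. For *Prkcq* the male and female WT/HET samples overlapped, since HET2 was above HET1. *Gm27206* and *Zhx3* overlap *Plcg1* on the opposite strand, and how reads in the shared stretches were assigned was not checked.

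The last 2 genes form the complex that acts on the IκB kinase. *Bcl10*, its scaffold, had 90.4, 96.4 and 84.1 CPM in the male, 60.7, 81.2 and 61.7 CPM in the female WT/HET and 105 and 90.0 CPM in the KO samples. *Malt1*, its protease, had 18.6, 19.1 and 12.1 CPM in the male, 7.97, 9.79 and 7.83 CPM in the female WT/HET and 18.5 and 11.7 CPM in the KO samples. *Malt1* was the only one of the 9 for which both WT1 and WT2 exceeded both KO samples, a pattern found in 18.3% of the 20610 genes tested.

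**Figure D3:**
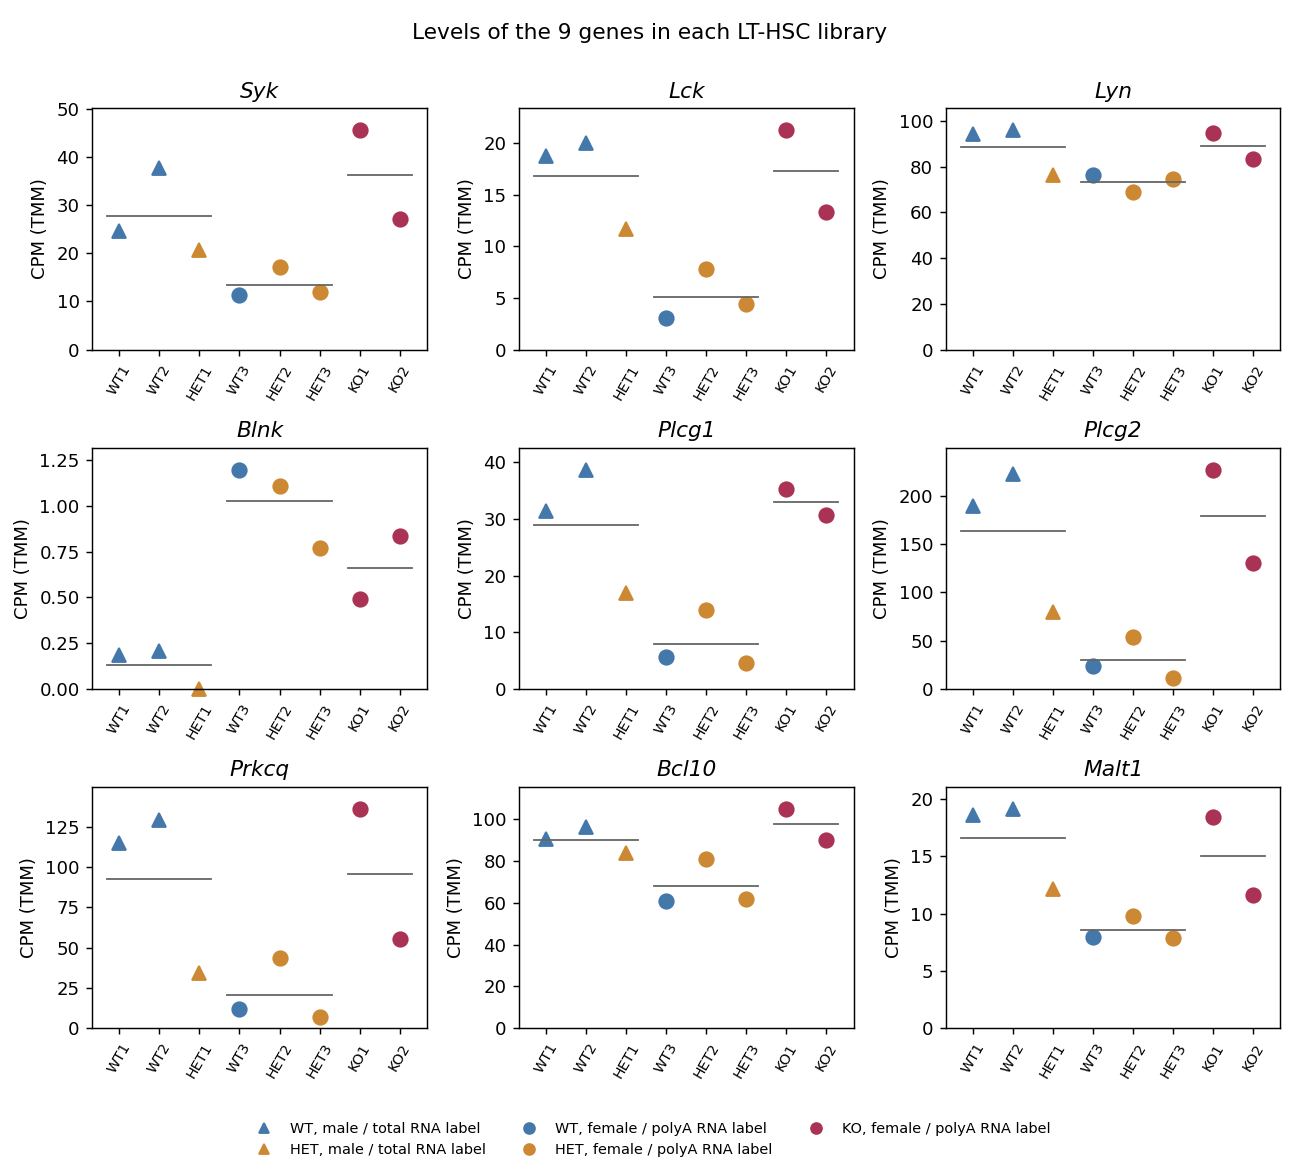
CPM (axes from 0) of the 9 genes in each library, with grey bars for the means of the male WT/HET, the female WT/HET and the KO samples. For 8 genes, all but *Blnk*, both KO points lie above the 3 female WT/HET points, and for none do both lie above all 6 WT/HET points.

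The comparison of KO with WT/HET pooled asks how the genes differ without IκBα. Taken by samples alone, 8 of the 9 genes were higher in both KO samples than in the 3 female WT/HET samples (*Blnk* was not), against 27.1% of all genes tested, while 0 of 9 were higher in both KO samples than in all 6 WT/HET samples, against 3.05% of all genes. Exact two-sided permutation tests of the mean log2 CPM of KO against the 6 others gave p-values of 0.143 for *Syk* and 0.214 to 0.643 for the other 8, where the smallest p-value this design allows is 0.0714. The deposited values that the authors had corrected for sex gave another picture, with 7 genes (all but *Lyn* and *Blnk*) higher in both KO samples than in all 6 others, against 19.3% of all genes, and each of the 7 at the smallest p-value of 0.0714. The correction was fitted to these same samples and the permutation does not count its error, so these p-values are not exact. On those log2 values *Plcg2* had 13.1 and 12.4 in KO1 and KO2 and 9.82 to 11.3 in the others. The difference between the male and the female WT/HET samples in *Plcg2* was 0.19 in these values and 2.60 in log2 CPM before the correction.

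With sex in the model, the quasi-likelihood test of edgeR gave log2 fold changes of KO over WT/HET of 2.58 ± 0.630 (SE) for *Plcg2*, 2.20 ± 0.805 for *Prkcq*, 2.04 ± 0.508 for *Plcg1*, 1.75 ± 0.444 for *Lck* and 1.43 ± 0.344 for *Syk*. *Malt1* followed with 0.82 ± 0.321, *Bcl10* with 0.52 ± 0.178, *Lyn* with 0.28 ± 0.161 and *Blnk* with -0.63 ± 0.989. None of the 9 passed the threshold (Benjamini-Hochberg adjusted p-value under 0.05 over all genes and an absolute log2 fold change over 1), with adjusted p-values by edgeR from 0.148 for *Syk*, *Lck*, *Plcg1* and *Plcg2* to 0.713 for *Blnk*. Nor did any other gene, so the background is 0% of 20610, and *Nfkbia* itself had an adjusted p-value by edgeR of 0.0862. At an unadjusted p-value under 0.05, 7 of the 9 were higher in KO (all but *Lyn* and *Blnk*), against 15.7% of all genes, and 0 were lower, against 9.48%. Single libraries moved the log2 fold changes of 3 genes by over 1.5 times on the linear scale, *Prkcq* to 1.41 without KO1 and 3.33 without HET2, *Plcg2* to 3.33 and *Plcg1* to 2.71 without HET2.

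DESeq2 with apeglm shrinkage, the tool of the study's methods, called 5 of the 9 as higher in KO, against 6.5% of all genes. They were *Plcg2* (shrunken log2 fold change 2.22, adjusted p-value 0.00463), *Plcg1* (1.71, 0.00877), *Prkcq* (1.49, 0.0426), *Lck* (1.46, 0.0114) and *Syk* (1.20, 0.0122). For a KEGG set of NF-κB signalling genes on these samples, the paper reported no significant enrichment in KO. It reported only a few genes of that set as differing. These 5 calls rest on the same samples and the same tool, so their direction is not independent evidence. *Bcl10* and *Malt1* had shrunken log2 fold changes of 0.42 and 0.60, and adjusted p-values by DESeq2 of 0.0882 and 0.0945. The calls did not hold in every set of samples. Without WT3 and HET3, the 2 libraries with the lowest LT-HSC markers, HET2 was the only female sample left to set against KO, and DESeq2 with apeglm called 0 of the 9, and 20 of all genes, with adjusted p-values from 0.396 for *Plcg2* to 0.885 for *Blnk* and unadjusted ones under 0.05 for 2 genes, *Plcg1* and *Plcg2*. The edgeR test called 4 of the 9 as higher (*Lck*, *Plcg1*, *Plcg2* and *Prkcq*) without HET2, against 3.49% of all genes, and 3 of the 9 (*Lck*, *Plcg1* and *Plcg2*) with WT alone as the reference, against 3.16%, in which WT3 is the only female sample.

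The size of the difference followed the reference and the covariates. Among the female samples alone, the edgeR log2 fold changes were 2.53 for *Plcg2*, 2.14 for *Prkcq*, 1.99 for *Plcg1*, 1.70 for *Lck* and 1.38 for *Syk*, and *Lyn* had 0.23. Against the 3 male WT/HET samples, the differences in mean log2 CPM were 0.20 for *Plcg2*, 0.13 for *Prkcq*, 0.27 for *Plcg1*, 0.04 for *Lck*, 0.39 for *Syk*, 0.11 for *Bcl10*, 0.01 for *Lyn* and -0.15 for *Malt1*. The KO samples thus stood 6.97 times above the female and 1.15 times above the male WT/HET samples in *Plcg2*. Without sex in the model, edgeR gave 0.88 for *Plcg2* and 0.82 for *Syk* and at most 0.84 for the other 7. Without WT3 and HET3 it gave 1.71 for *Plcg2*, 1.22 for *Plcg1*, 1.11 for *Prkcq* and *Lck* and 1.06 for *Syk*, with adjusted p-values of at least 0.682. With the LT-HSC marker level as a further covariate, chosen after the data were seen, the log2 fold changes were 0.13 for *Plcg2*, 0.25 for *Plcg1*, 0.40 for *Lck*, 0.36 for *Syk*, 0.07 for *Bcl10* and -1.01 for *Prkcq*, and 0 of the 9 passed the threshold. That marker level was itself higher in both KO samples than in the female WT/HET samples.

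**Figure D4:**
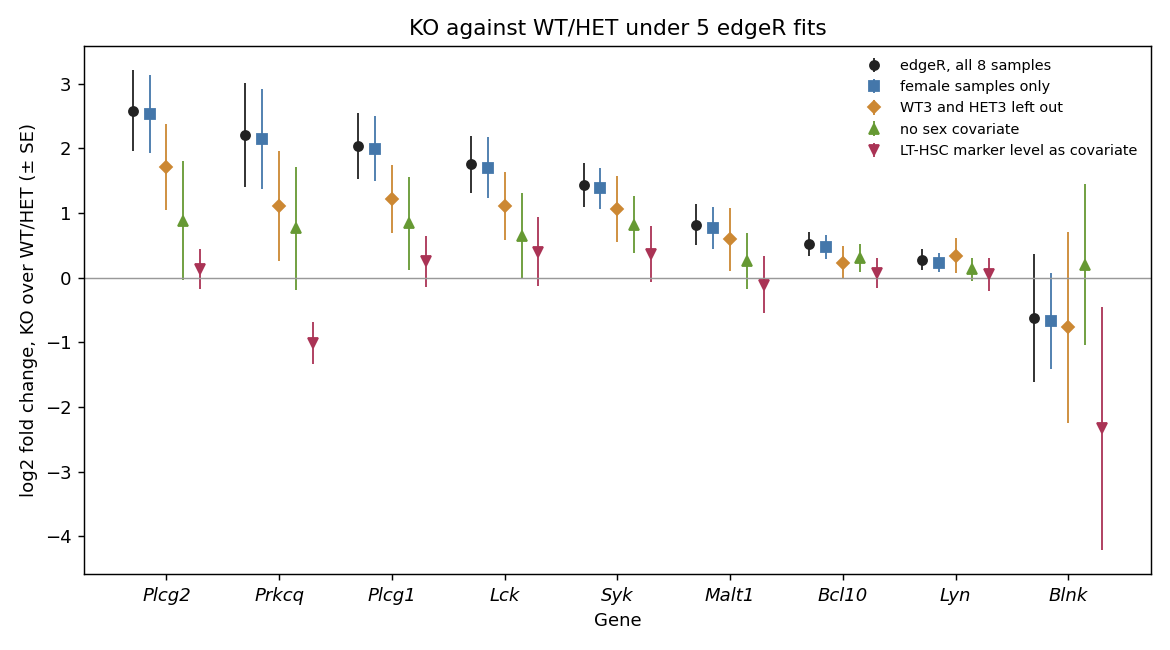
Log2 fold changes of KO over WT/HET with their standard errors for the 9 genes under 5 edgeR fits, each in its own color and symbol. The values of *Plcg2* run from 2.58 with all 8 samples and sex in the model to 0.13 with the LT-HSC marker level as a covariate, and those of *Lyn* from 0.34 to 0.05.

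The levels were also read against the LT-HSC markers of the same library. *Plcg2* amounted to 8.02% and 9.23% of the summed marker CPM in the KO samples, 7.66% to 8.54% in the male and 4.62% to 7.25% in the female WT/HET samples. On this scale its range over the 8 libraries was therefore far narrower than that of its CPM. *Plcg1* amounted to 1.44% and 1.90% in KO and 1.27% to 1.89% in the WT/HET samples, and *Prkcq* to 3.43% and 5.53% in KO and 2.82% to 5.89% in the WT/HET samples, so that for both the KO samples overlapped the others. *Lck* had 0.819% and 0.865% in KO and 0.758% to 1.81% in the WT/HET samples. *Syk* had 1.67% and 1.85% in KO, between the 0.993% of WT1 and the 4.84% of HET3. *Lyn* and *Bcl10* behaved in the opposite way, with 3.85% and 5.15% and with 4.27% and 5.56% of the marker sum in the KO samples against up to 30.3% and 25.1% in HET3. These ratios are a description, and no test was made on them. Their denominator, the marker sum, was itself higher in both KO samples than in the female WT/HET samples.

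The label that separates WT1, WT2 and HET1 from the other libraries had differences of like size. The edgeR log2 fold changes of male with total RNA over female with polyA RNA, taken from the same fit, were 2.46 ± 0.592 (SE) for *Plcg2*, 2.15 ± 0.754 for *Prkcq*, 1.85 ± 0.472 for *Plcg1*, 1.72 ± 0.413 for *Lck* and 1.04 ± 0.315 for *Syk*. *Malt1* had 0.96, *Bcl10* 0.41, *Lyn* 0.28 and *Blnk* -2.87. By edgeR 0 of the 9 were called, against 0.0194% of all genes, with adjusted p-values from 0.0895 for *Plcg1*, *Plcg2* and *Lck* to 0.217 for *Lyn*. DESeq2 called 5 of the 9 as higher with the male label (*Syk*, *Lck*, *Plcg1*, *Plcg2* and *Prkcq*), against 11.5% of all genes, and *Blnk* as lower, against 3%, and it called 0 of the 9 without WT3 and HET3. Among the WT/HET samples, 7 of the 9 were higher in all 3 male than in all 3 female samples, against 21.3% of all genes, and *Blnk* was lower in all 3, against 17.5%. The exception was *Prkcq*, whose groups overlapped. The exact two-sided permutation p-value was 0.1, the smallest that 3 samples against 3 allow, for the 8 genes without overlap and 0.2 for *Prkcq*. WT3 and HET3, with their low LT-HSC and high hepatocyte markers, are 2 of the 3 female WT/HET samples.

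HET was compared with WT to see whether losing 1 copy of *Nfkbia* moved the genes. With sex in the model, the edgeR log2 fold changes were -0.48 ± 0.728 (SE) for *Plcg2*, -0.40 ± 1.05 for *Prkcq*, -0.18 ± 0.639 for *Plcg1*, -0.13 ± 0.360 for *Syk*, -0.20 ± 0.150 for *Lyn*, -0.25 ± 0.323 for *Malt1*, 0.11 ± 0.532 for *Lck*, 0.04 ± 0.190 for *Bcl10* and -1.37 ± 1.16 for *Blnk*. All adjusted p-values by edgeR were 0.931 or higher, and 0 of the 9 were called, against 0% of the 20585 genes tested (before adjustment 747 genes were under 0.05, and DESeq2 called 64 genes but 0 of the 9). *Nfkbia* itself had a log2 fold change of -0.69 ± 0.431 with an adjusted p-value by edgeR of 0.931. In log2 CPM the groups overlapped in each of the 9 genes. In the sex-corrected values *Lyn* and *Blnk* were lower in every HET than in every WT sample, with mean differences of -0.19 and -0.15. Their exact two-sided permutation p-value was 0.1, the smallest this design allows, and it does not count the error of the correction. The comparison of HET with WT rested on WT3 and HET3. Without them HET2 was the only female sample and was taken up by the sex term, so that HET1 alone was set against WT1 and WT2 with the spread between those 2 as the error. In that fit *Prkcq* (-1.84 ± 0.198), *Plcg2* (-1.38 ± 0.187) and *Plcg1* (-1.06 ± 0.265) were called as lower in HET, with adjusted p-values by edgeR of 1.9e-04, 7.7e-04 and 0.0185, against 6.32% of all genes. The LT-HSC marker sum was 946 CPM in HET1 and 2475 and 2596 CPM in WT1 and WT2, and its part in the difference was not tested. Without HET2, *Plcg2* was called as lower in HET by edgeR, against 0.637% of all genes. With the replicate number as a block, the log2 fold changes were -1.18 ± 0.213 for *Plcg2* and -1.30 ± 0.309 for *Prkcq*, with adjusted p-values by edgeR of 0.42 and 0.585, and 0 of the 9 were called.

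The rest of the pathway was read from 5 lists with 101 genes in all, of which 95 passed the filter. By edgeR 0 of the 95 were called in KO, and 43 were higher and 1 lower at p-values under 0.05 before adjustment, beside the 15.7% and 9.48% of all genes. DESeq2 with apeglm called 26 as higher and 0 as lower, beside 6.5% and 0.597% of all genes. Both KO samples were above the 3 female WT/HET samples in 54 of the 95 (27.1% of all genes) and above all 6 WT/HET samples in 1 (3.05%). In 24 of the 95, WT1 and WT2 were both above both KO samples (18.3% of all genes). The median edgeR log2 fold change of KO was 1.12 over the 95 genes, 1.43 over the 9 and 0.13 over all genes, and that of the male label was 1.19, 1.04 and 0.19. With library size alone as the scaling, the median over all genes was 0.41 and that of the 9 was 1.72.

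Of the 23 receptor-proximal kinases and phosphatases, 21 were tested, and DESeq2 with apeglm called 7 as higher, against 6.5% of all genes. The median edgeR log2 fold change of this list was 1.39. *Ptprc* (CD45), the phosphatase that primes SRC-family kinases, rose in KO by DESeq2 with a shrunken log2 fold change of 2.37 (adjusted p-value 0.00403), and so did *Ptpn6* (SHP-1), which opposes the pathway, with 1.05 (0.00822). *Ptpn6* had 390 and 298 CPM in KO1 and KO2, below the 395 and 406 CPM of WT1 and WT2. *Csk*, which holds SRC-family kinases inactive, had -0.20 (0.390). *Ptprc* had 235, 256 and 97.4 CPM in the male WT/HET samples, 19.6, 45.3 and 8.36 CPM in the female ones and 223 and 107 CPM in KO, so that its libraries fell in the same order as those of *Plcg2* apart from the order of the first 3. Of the 17 adaptors and exchange factors, 16 were tested and 4 called as higher, against the same 6.5%, with a median of 1.16. *Dok2*, an adaptor that restrains tyrosine kinase signalling, rose with 1.79 (0.0155), whereas *Grb2* had 0.12 (0.502) and *Skap2* 0.81 (0.0476), under the fold threshold. *Grb2* was level, at 118 to 142 CPM in the 8 libraries.

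The 16 receptor and coreceptor chains included several at or near 0, and 14 were tested. *Cd3e* had no read in any library, and neither did *Blk* among the kinases or *Card14* among the CARD proteins. DESeq2 with apeglm called 3 of the 14 as higher, against 6.5% of all genes, and the median edgeR log2 fold change of the 14 was 1.04. *Cd79b*, a chain of the B-cell receptor, rose with 1.60 (adjusted p-value 0.0365), from 2.14 to 26.5 CPM in the female WT/HET samples to 80.9 and 52.2 CPM in KO, and was 35.7 to 97.4 CPM in the male ones. It was the only 1 of the 9 B-lineage markers that was higher in both KO samples than in the 3 female WT/HET samples. *Rag1* and *Ms4a1* had no read and *Pax5* was at most 0.151 CPM. HET2 held other B-lineage RNA, with *Cd79a* at 4.49, *Igll1* at 5.1 and *Vpreb1* at 3.03 CPM. The 9 B-lineage markers summed to 53.7 and 82.8 CPM in KO, mostly *Cd79b*, and to 2.67 to 102 CPM in the WT/HET samples. The shared chains *Fcer1g* and *Tyrobp* had 0.30 (0.395) and 0.01 (0.982).

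Of the 30 genes of the phospholipase, diacylglycerol, protein kinase C and calcium branch, all 30 were tested, with a median edgeR log2 fold change of 1.26. DESeq2 with apeglm called 11 of them as higher, against 6.5% of all genes. *Orai1*, the pore of the store-operated calcium channel, was called as higher with 1.22 (adjusted p-value by DESeq2 0.0305). Its 224 and 148 CPM in KO1 and KO2 nevertheless lay below the 289 and 280 CPM of WT1 and WT2. *Dgkz*, which removes diacylglycerol, had 0.25 (0.296) and *Ppp3ca*, the catalytic subunit of calcineurin, 0.80 (0.0565). Of the 15 CARD-BCL10-MALT1 partners and MALT1 substrates, 14 were tested and the median was 0.72. Among the 14, 1 was called as higher, a share close to the 6.5% of all genes. *Csnk1a1* (-0.11, 0.533), *Casp8* (0.89, 0.0158) and *Tab2* (0.59, 0.115), the most abundant 3, did not pass the threshold. The one called was *Card9*, with 2.22 (0.0207), named here after its value was seen. Without WT3 and HET3, DESeq2 with apeglm called 0 of these pathway genes in either direction and 15 of all genes as higher.

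**Figure D5:**
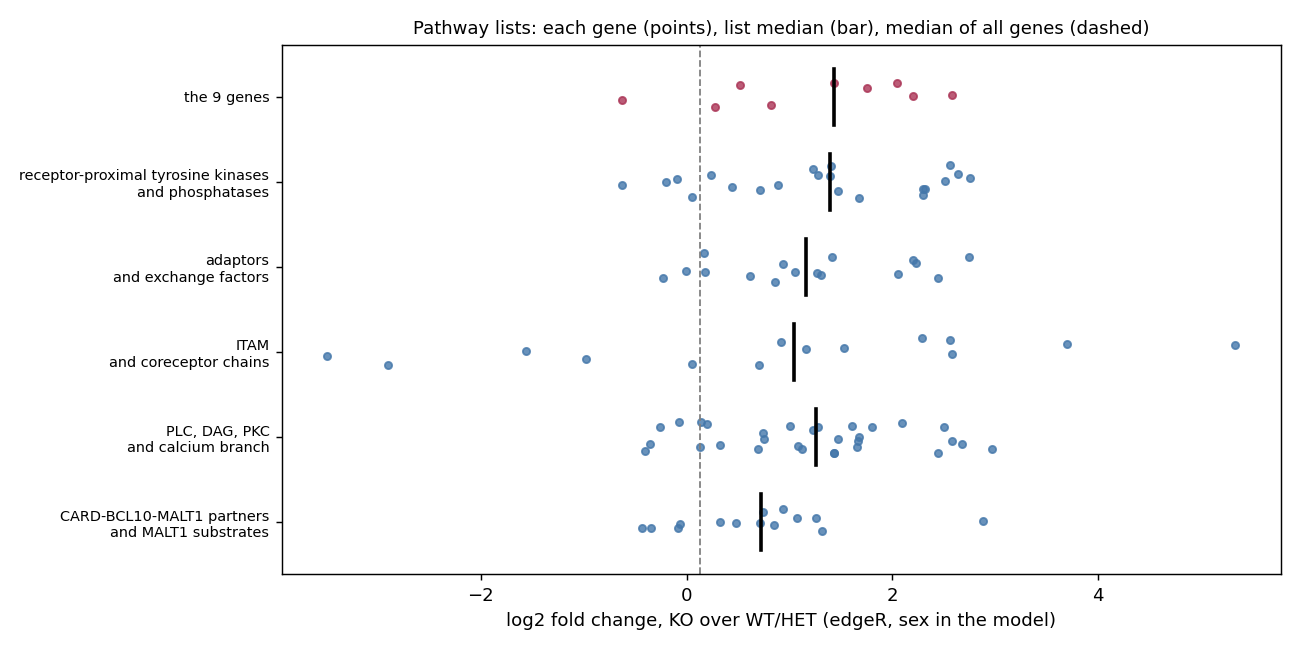
Log2 fold changes of KO over WT/HET by edgeR for each tested gene of the 9 and of the 5 pathway lists (points), the median of each list (black bars) and the median over all 20610 genes (dashed line, 0.13). The list medians lie between 0.72 and 1.39 and that of the 9 genes at 1.43, and the most extreme points of the receptor chains are genes with few reads.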

How the data were processed

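Bulk RNA-seq of 8 LT-HSC samples was used. According to the methods, the authors trimmed the reads with Trim Galore 0.6.6, aligned them to GRCm38 with STAR 2.7.8, kept unique reads and deposited raw counts per Ensembl gene. Unique reads undercount genes with near-identical copies, and the strand setting is not given in the sources used here. The authors also deposited log2 values that had been variance-stabilized in DESeq2 1.38.3 and then corrected for sex. Those log2 values were used only for single-gene comparisons.

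Genes with under 10 reads over the 8 samples were left out, leaving 20610. Counts were scaled by TMM and tested in R 4.3.3 by edgeR 4.0.16 (quasi-likelihood test, legacy form) on a model of sex and genotype, with Benjamini-Hochberg adjustment. HET was tested against WT on 6 samples. DESeq2 1.42.0 with apeglm 1.24.0, other scalings and filters, the edgeR version 4 form, a replicate block, no sex term, other references and each sample left out were alternatives. The fits without WT3 and HET3 and with the LT-HSC marker level (log2 CPM of the 12 markers summed) were chosen after seeing the data. Log2 CPM used a prior count of 2. The fits were also run on simulated counts with known KO changes. Those counts held no difference by sex label or marker content, so the run cannot show how the fits behave under such differences. RPKM used GENCODE M21 exon lengths, and promoters were RefSeq entries on GRCm38.p6.

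The genes, lists and markers were chosen with earlier results of these data known. Named genes are the 9 genes, *Nfkbia* and the 3 genes of each pathway list with the highest mean CPM. Others were named after their values were seen. Samples of 1 genotype differed by far more than sampling noise (mean chi-square per gene from 18.9 to 261, where 1 is noise alone). The deviations from the genotype means correlated by 0.293, 0.198 and 0.590 between the WT and HET samples numbered 1, 2 and 3 (pairs 1 and 3 also share a sex label). Samples of different numbers were not correlated for comparison, so these values cannot show that the numbers pair the groups. The labels do not state a pairing, and the replicate block served only as an alternative fit. The correlations of KO1 with WT1 and HET1 were 0.278 and 0.244, and those of KO2 with WT2 and HET2 were -0.346 and -0.124. The 2 KO samples deviate from their own mean in opposite directions, so these signs cannot show pairing either.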

Additional observations from a re-analysis of the deposited data

Results flagged for a closer look

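In 3 genes the HET samples differed from WT in opposite directions under the 2 sex labels. Male HET1 was below both WT1 and WT2, with mean differences in log2 CPM of -0.56 for *Syk*, -0.73 for *Lck* and -0.15 for *Bcl10*, whereas female HET2 and HET3 were both above WT3, by 0.32, 0.92 and 0.22. The difference between the labels was tested as an interaction over the 6 samples with edgeR and did not pass for any of them, with adjusted p-values of 0.568 for *Syk*, 0.481 for *Lck* and 0.666 for *Bcl10*. Each label holds a group of 1 sample in this comparison. WT3 and HET1 hold fewer LT-HSC marker reads than the libraries they are set beside except HET3, and the part of this was not tested. No library of the 6 WT and HET samples stood apart from the others in any of the 9 genes by Dixon's gap test on log2 CPM, a test that flags about 1 in 20 groups by chance. The test looks for 1 outlying library, so 2 that are low together can hide each other. WT3 and HET3 were the 2 lowest libraries for *Plcg2* and *Prkcq*, and the test cannot speak to them there.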

How the results depend on the processing

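For KO against WT/HET, where the edgeR test called 0 genes, DESeq2 called 1825 genes without and 1463 with apeglm shrinkage, edgeR without a filter on low counts called 1106, its version 4 form 1, WT alone as the reference 662, and the LT-HSC marker covariate 1. DESeq2 with apeglm called 20 without WT3 and HET3. Of the 9 genes, 5 were called by DESeq2 with or without shrinkage and without a filter, and 3 with WT alone. Leaving out 1 library at a time, edgeR called 0 to 730 of all genes (730 without HET2) and 0 to 4 of the 9. For HET against WT, DESeq2 called 64 genes, edgeR without a filter 131, and without WT3 and HET3 it called 1967, of which 3 were of the 9. With 1 library left out it called 0 to 135 and 0 to 1 of the 9. For the male against the female label, edgeR called 4 genes, DESeq2 2988, no filter 2255, at least 10 reads in every sample 0, the version 4 form 7, 3 genotype levels 2, and without WT3 and HET3 edgeR called 2 and DESeq2 74. DESeq2 called 6 of the 9 and edgeR without a filter 5. With 1 library left out edgeR called 2 to 3070 (3070 without HET1) and 0 to 6 of the 9. With the replicate block, 0 genes were called in each of the 3 comparisons, with 589 at an unadjusted p-value under 0.05 for KO, and no call among the 9 changed. In that fit *Lck* and *Bcl10* had log2 fold changes of -0.10 and -0.04 in HET, and those in KO were 1.80 for *Plcg2*, 1.42 for *Plcg1*, 1.17 for *Syk*, 1.11 for *Prkcq* and *Lck*, 0.57 for *Malt1*, 0.38 for *Lyn*, 0.26 for *Bcl10* and -0.33 for *Blnk*. With 1 library left out, the KO log2 fold changes ran from 2.13 to 3.33 for *Plcg2*, 1.41 to 3.33 for *Prkcq*, 1.74 to 2.71 for *Plcg1*, 1.37 to 2.20 for *Lck* and 1 to 1.76 for *Syk*. The direction of a log2 fold change turned in 3 cases for KO, in *Blnk* without sex in the model (0.20), and in *Prkcq* (-1.01) and *Malt1* (-0.11) with the marker covariate. The difference in mean log2 CPM of *Blnk* turned to -0.14 in the sex-corrected values. In HET against WT, *Lck* turned to -0.09 in the version 4 form, -0.81 without sex in the model and -0.74 without WT3 and HET3, *Bcl10* to -0.06 with library size only, -0.13 without sex and -0.15 without WT3 and HET3, and *Blnk* to 0.25 without sex. With 1 library left out, the log2 fold changes of HET over WT ran from -0.59 to 0.34 for *Syk*, -0.74 to 0.99 for *Lck*, -1.06 to 0.71 for *Plcg1*, -1.38 to 0.43 for *Plcg2*, -1.84 to 1.06 for *Prkcq*, -0.15 to 0.23 for *Bcl10* and -0.64 to 0.14 for *Malt1*, lowest without WT3 and highest without HET1 in each. The cause of these changes was not tested. With 2 KO samples, both of the female label, and *Blnk* at 0 to 23 reads, differences of that size in *Blnk* were not detectable at this depth.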

Other observations

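The relatives of the 9 genes, named here after their values were seen, differed in level. Among the TEC kinases, which activate phospholipase Cγ beside SYK, *Btk* had a median of 20.8 RPKM and *Tec* 5.03 RPKM. *Btk* had an edgeR log2 fold change of 0.05 ± 0.158 (SE) in KO (adjusted p-value 0.881), and *Tec* one of 1.68 ± 0.548 with 0.154. The β forms of phospholipase C, which answer to G proteins instead of tyrosine kinases, were also present, with edgeR log2 fold changes of 2.58 ± 0.747 for *Plcb2* and 2.09 ± 0.301 for *Plcb3* and adjusted p-values of 0.151 and 0.148.

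Among the CARD proteins that bridge protein kinase C to BCL10, *Card9*, the form of myeloid cells, had 394 reads over the 8 libraries together and a median of 0.827 RPKM, and *Card10* had 0.244 RPKM. Both were thus far below *Bcl10* (19.1 RPKM) per length. Among the other diacylglycerol-activated protein kinases C, *Prkch* had a median of 4.91 RPKM and *Prkcd* of 16.6 RPKM, against 6.99 RPKM for *Prkcq*.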
